A study of Homo sapiens with 6 samples.

Results

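Amino acid transporter genes were examined in RNA sequencing of U87-MG, an established human glioma cell line. The set was defined by name as the genes of the solute carrier families SLC6, SLC7, SLC36, SLC38 and SLC43, with SLC7A11 left out. It held 49 of the 61806 genes in the table, of which 19 belonged to SLC6, 12 to SLC7, 4 to SLC36, 11 to SLC38 and 3 to SLC43. Cells of the negative control group (NC, 3 libraries, labelled wildtype) were compared with cells labelled GRIK1 siRNA (3 libraries, genotype given as GRIK1 knockdown). The latter are called siRNA-labelled libraries here. GRIK1 encodes a kainate-type glutamate receptor subunit. The 2 groups shared the cell line, the total RNA input and the library kit, and the time after transfection was not given in the sources used here. The titles speak of siRNA while the series text speaks of shRNA, and the study's methods list 3 siRNA sequences with the same names as the titles. Its text says that the sequence siRNA1 worked best and was used afterwards, which would make the numbers replicates, but the labels do not say so. Nothing in the labels says whether the libraries came from separate cultures, so the p-values measure the spread between these libraries, which may be technical.

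Amino acids are charged or polar and cross membranes through carrier proteins. SLC7 light chains such as SLC7A5 (LAT1) exchange large neutral or cationic amino acids and reach the plasma membrane bound to the heavy chain SLC3A2, also called CD98 or 4F2hc. SLC38 carriers move glutamine and other small neutral amino acids with sodium, SLC36 carriers use protons, SLC43 carriers are facilitators, and many SLC6 carriers take up neurotransmitters, taurine, creatine or glycine with sodium and chloride. Carriers on the lysosome, among them SLC36A1, SLC38A7 and SLC38A9, hand amino acids or an amino acid signal to the growth kinase complex mTORC1. The families also hold members that carry something else, such as the creatine carrier SLC6A8 and SLC43A3, known for purine nucleobases.

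GRIK1 was not lower in the libraries that bear its name. Its counts were 18, 9 and 8 in NC libraries 1 to 3, against 15, 20 and 20 where the label names GRIK1. The means were 0.236 ± 0.130 FPKM (SD, n = 3) and 0.339 ± 0.0468 FPKM (SD, n = 3), and the difference was 0.12 on the log2(FPKM + 1) scale (p = 0.4 by a two-sided exact permutation test, whose smallest possible p with 3 libraries a group is 0.1). Both means lie below the limit of 0.5 FPKM set for tested genes, and with so few counts a partial loss of GRIK1 could be missed. The study itself reported an efficient knockdown of GRIK1 in U87-MG cells. Since the counts here do not show it, the direction of every value below refers to the libraries by their label. Total counts lay between 11099909 and 14006968 per library. NC library 3 stood apart, with 9.37% of its counts on ribosomal protein genes against 4.79% to 5.50% elsewhere and the lowest correlations with the other libraries (Pearson's r of 0.952 to 0.968 across genes). Results of tested genes are therefore given with all 6 libraries and without NC library 3. The glioma markers VIM and CD44 were high (means of 1001 and 61.4), while of 9 astrocytic and glioma markers 3 reached a mean of 0.5 and AQP4 and ALDH1L1 had 0 counts. Markers of endothelium and oligodendrocytes stayed below 0.5 (0 of 4 in each list), as did those of neurons, leukocytes and epithelium except for 2 of 5, 1 of 5 and 1 of 4 genes. All 5 fibroblast and pericyte markers reached 0.5. Their summed level was 89.2 to 276.8 in NC and 573 to 595.8 in the siRNA-labelled libraries, mostly from COL1A1 and COL1A2. DCN was at 2.29, 2.619 and 4.127 in NC and at 2.777, 3.073 and 3.071 in the siRNA-labelled libraries. LUM was at 6.51, 5.857 and 11.97 against 6.892, 6.763 and 8.105. Both genes overlapped between the groups and were highest in NC library 3, where both collagen genes were lowest. PDGFRB was lowest there too, at 4.988, 4.133 and 1.971 against 5.602, 5.241 and 4.997. The part of these markers in the results below was not tested. In bulk RNA fewer cells of a type and less RNA per cell cannot be told apart.

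Of the 49 genes, 20 reached a mean of 0.5 FPKM over the 6 libraries and were tested, a share of 40.8% against 25.7% of all genes. SLC43A1 was the lowest gene inside this limit with a mean of 0.573 FPKM, and SLC7A4 the highest outside it with 0.498 FPKM. Levels below are FPKM rescaled with the TMM factor of each library, which corrects for the make-up of the library and counts fragments per kilobase of exon. SLC38A2, the sodium-coupled carrier SNAT2 that is known to be induced when amino acids run short, was the highest, with 129.4, 128.8 and 109.2 in NC and 124.1, 127.7 and 129.8 in the siRNA-labelled libraries. SLC43A3 followed with a mean over the 6 libraries of 84.6 ± 20.5 (SD, n = 6), then the taurine carrier SLC6A6 with 67.6 ± 18.2, SLC7A5 with 40.1 ± 12.3 and the glutamine carrier SLC38A1 with 39.0 ± 5.24. These 5 genes held 78.0% to 79.9% of the summed level of the 20 in each library. Ranges over the 6 libraries were apart for only 3 pairs of neighbours in this order. SLC38A1 lay above SLC6A8, SLC38A6 above SLC38A7, and SLC36A4 above SLC7A8, while every other pair of neighbours overlapped in range. Such ranges do not compare genes within a library. Within each library further neighbours kept their order, such as SLC38A2 above SLC43A3 and SLC6A6 above SLC7A5. The lowest of the tested genes were SLC7A8, SLC7A7 and SLC43A1, with means of 1.19, 0.581 and 0.571.

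**Figure D1:**
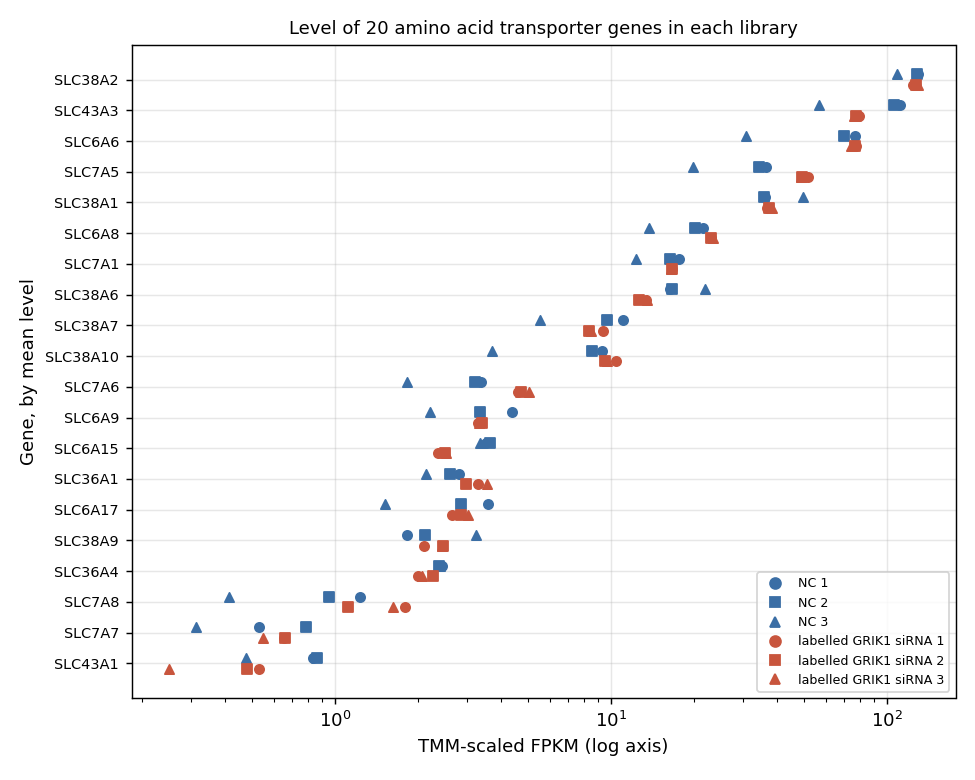
Level of each of the 20 tested genes in each library, in TMM-scaled FPKM on a log axis, with genes ordered by mean level. Blue marks are NC libraries and red marks are siRNA-labelled libraries, and the triangle of NC library 3 lies left of the other 5 libraries for 14 of the 20 genes.

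NC library 3 was low for most of these genes. It was the lowest of the 6 libraries for 14 of the 20 (70%), against 35.8% of all tested genes, and the highest for SLC38A1, SLC38A6 and SLC38A9, against 35.5% of all tested genes. The summed level of the 20 was 490.9 and 469.5 in NC libraries 1 and 2, 341.6 in NC library 3, and 466, 461.5 and 463.6 in the siRNA-labelled libraries. The sum in NC library 3 was 0.711 times the mean of the other NC libraries, while the sodium-coupled SLC38 genes together were at 0.952 times and the SLC6 carriers of taurine, creatine and glycine at 0.477 times.

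Promoters are shown for genes of the set that passed the test in the comparison without NC library 3 and hold a motif, and for SLC7A1 beside them. RefSeq windows of 250 bases before to 50 after a gene start (build GRCh38.p14) were matched for 37 of the 49 genes and for 17 of the 20 tested, and SLC6A6, SLC43A3 and SLC6A15 had no match. Both strands were searched for the E-box CACGTG, bound by MYC and by the lysosomal regulators TFEB and MITF, and for TGATGNAA, the core of the amino acid response element bound by ATF4 with a CEBP partner. An E-box can end in the TG with which TGATGNAA begins, but no gene of the set held both motifs. The E-box was present in windows of 8 of the 37 genes, 6 of them tested (SLC7A5, SLC7A7, SLC7A8, SLC36A1, SLC38A7 and SLC43A1), and by window in 8 of the set's 51 windows, beside 7.26% of all 35116 windows. TGATGNAA was present for SLC7A1 and SLC38A1, and in 3.62% of all windows. The windows with a motif of SLC36A1, SLC38A1, SLC7A7 and SLC7A8 lie inside the gene as placed in the deposited annotation. Whether U87-MG cells use those starts was not tested. A match is a description of the letters and not a bound site. The windows lie on the minus strand at chr16:87869458-87869757 for SLC7A5, chr16:58684721-58685020 for SLC38A7, chr11:57515653-57515952 for SLC43A1 and chr13:29595639-29595938 for SLC7A1. They are printed 5′ to 3′ along the gene with the motif in capitals.
SLC7A5: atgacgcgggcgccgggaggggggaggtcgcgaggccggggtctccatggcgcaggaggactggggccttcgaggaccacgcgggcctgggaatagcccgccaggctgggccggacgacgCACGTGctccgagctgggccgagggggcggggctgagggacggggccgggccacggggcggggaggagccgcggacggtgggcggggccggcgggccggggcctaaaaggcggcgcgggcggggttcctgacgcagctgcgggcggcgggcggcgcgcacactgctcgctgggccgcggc
SLC38A7: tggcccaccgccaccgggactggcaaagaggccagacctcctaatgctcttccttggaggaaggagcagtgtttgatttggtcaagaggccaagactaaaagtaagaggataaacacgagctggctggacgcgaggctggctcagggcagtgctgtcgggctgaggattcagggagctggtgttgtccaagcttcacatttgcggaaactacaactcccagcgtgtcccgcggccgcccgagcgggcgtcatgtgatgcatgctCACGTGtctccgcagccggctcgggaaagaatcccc
SLC43A1: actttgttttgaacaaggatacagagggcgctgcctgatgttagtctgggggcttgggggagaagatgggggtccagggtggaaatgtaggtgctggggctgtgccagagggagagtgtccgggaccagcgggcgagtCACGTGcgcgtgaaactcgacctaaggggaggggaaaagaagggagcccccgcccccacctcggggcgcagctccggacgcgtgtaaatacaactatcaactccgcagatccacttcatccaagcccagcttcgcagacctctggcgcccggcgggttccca
SLC7A1: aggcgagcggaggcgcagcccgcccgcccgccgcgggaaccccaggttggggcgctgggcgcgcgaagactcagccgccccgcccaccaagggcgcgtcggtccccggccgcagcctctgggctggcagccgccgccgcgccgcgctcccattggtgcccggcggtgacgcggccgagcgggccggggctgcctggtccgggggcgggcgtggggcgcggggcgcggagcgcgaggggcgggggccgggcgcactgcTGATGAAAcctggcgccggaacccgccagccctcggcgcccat
The E-box began 130 bases before the start of SLC7A5, 112 bases before that of SLC43A1 and 14 bases after that of SLC38A7. In SLC7A1, TGATGAAA began 7 bases after the start. The E-box genes that passed without NC library 3 did not share a direction, with SLC7A5 higher and SLC38A7 and SLC43A1 lower.

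The main comparison asked which of these carriers differ in level between the siRNA-labelled libraries and NC. With all 6 libraries, 0 of the 20 tested genes passed the edgeR quasi-likelihood test at an adjusted p under 0.05, beside 3.08% of all 15870 tested genes (1.6% higher and 1.48% lower). With an absolute log2 fold change over 1 required as well, the background was 1.41%. At an unadjusted p under 0.05 there were 5 of 20 (SLC6A15, SLC7A6, SLC38A6, SLC7A5 and SLC36A1), beside 25.1% of all tested genes. DESeq2 called 3 of the 20 on the same libraries (SLC7A5 and SLC7A6 higher, SLC6A15 lower), beside 10.6% of all genes (5.44% higher and 5.17% lower). With no filter on low values edgeR called SLC7A5 and SLC7A6, beside 4.12% of all genes. Without NC library 3, edgeR called 8 of 20, beside 35.2% of all genes. SLC7A5, SLC7A6 and SLC6A8 were higher, beside 16.9% of all genes, and SLC38A6, SLC38A7, SLC43A1, SLC43A3 and SLC6A15 were lower, beside 18.3%. The 8 of 20 is a share near that background. DESeq2 without NC library 3 called 6 of 20, beside 26.5% of all genes. Limma voom with sample quality weights, on all libraries, called 9 of 20, beside 39.9%, namely the 8 genes above and SLC36A1 on the higher side. Here and in the lists below, that fit gave NC library 3 a weight of 0.04985, against 1.023 to 2.601 for the other libraries. It is therefore close to a fit without NC library 3 and not separate from it. The common dispersion of the counts was 0.0391 with NC library 3 and 0.00298 without it. The median log2 fold change of the 20 was 0.08 with 12 positive, and without NC library 3 it was -0.03 with 9 positive, while that of all tested genes was -0.02 and 0.01.

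**Figure D2:**
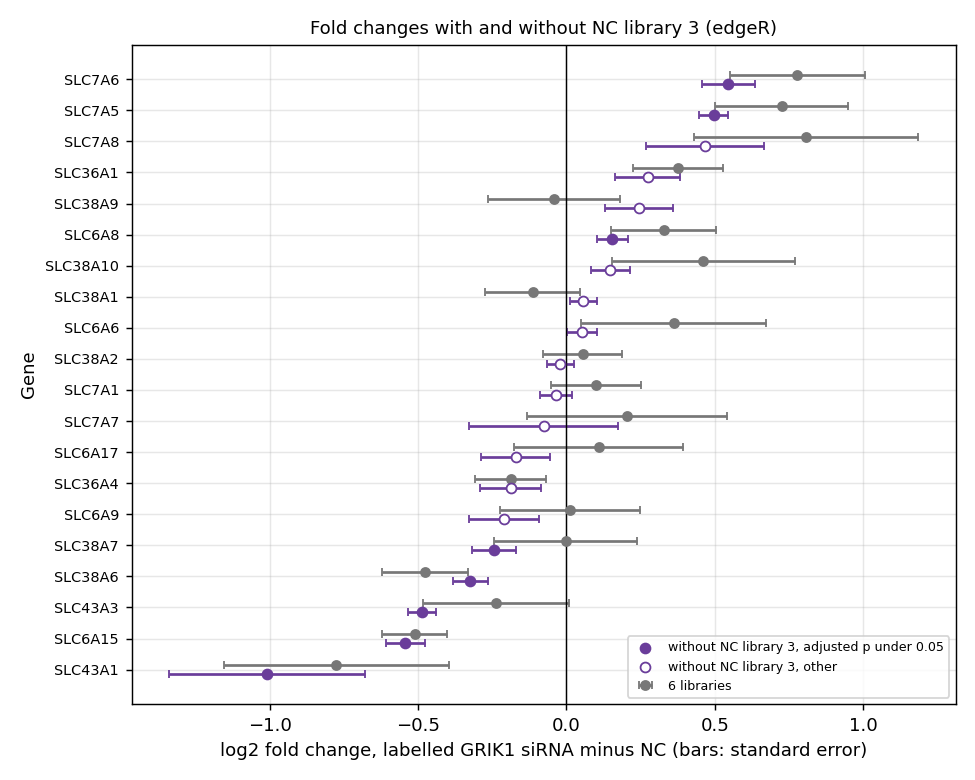
Log2 fold change (siRNA-labelled libraries minus NC) of each tested gene from edgeR, with bars of 1 standard error. Grey marks use all 6 libraries and purple marks leave out NC library 3, where 8 filled marks passed at an adjusted p under 0.05, with SLC7A6 at 0.55 and SLC43A1 at -1.01.

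Light chains of SLC7 depend on a heavy chain partner for their place in the membrane. The common partner SLC3A2 was at 110.4, 113 and 56.8 in NC and at 139, 119.5 and 118.1 in the siRNA-labelled libraries. The groups did not overlap, with NC library 3 far below the rest. Its log2 fold change was 0.43 ± 0.26 (SE, as for every fold change here, adjusted p = 0.339), and without NC library 3 it was 0.17 ± 0.06 (adjusted p = 0.0418). SLC3A1, the heavy chain of the renal cystine carrier, had 2 to 7 counts.

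Among the light chains, SLC7A5 was at 36.6, 34.4 and 19.8 in NC and at 51.8, 49.1 and 49.1 in the siRNA-labelled libraries. All 3 of the latter exceeded each NC library, and NC library 3 was the lowest. SLC7A5 (chr16:87830023-87869507, GRCh38, minus strand), the main importer of leucine and other large neutral amino acids in many tumours, had a log2 fold change of 0.73 ± 0.23 (adjusted p = 0.115). Without NC library 3 it was higher by 0.50 ± 0.05 (adjusted p = 6.49e-07), a level 1.41 times that of NC. Counts on its copies SLC7A5P1 and SLC7A5P2 were 0 in every library.

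SLC7A6 (chr16:68264516-68301823, plus strand), the exchanger y+LAT2 for cationic and neutral amino acids, was at 3.38, 3.23 and 1.82 in NC and at 4.62, 4.74 and 5.07 in the siRNA-labelled libraries. These groups did not overlap either. For SLC7A6 the log2 fold change was 0.78 ± 0.23 (adjusted p = 0.102), and without NC library 3 it was 0.55 ± 0.09 (adjusted p = 0.000144). SLC7A6OS lies across part of SLC7A6 on the opposite strand with 57 to 80 counts per library, and as the strand setting of the counting is not given in the sources used here, its reads cannot be told apart where the genes overlap. SLC7A6OS itself had a log2 fold change of -0.09 ± 0.18, or 0.01 without NC library 3. The unnamed gene ENSG00000279649 overlaps there too, with 87, 68 and 22 counts in NC and 77, 92 and 81 in the other group, and like SLC7A6 it was lowest in NC library 3. Its log2 fold change was 0.30 ± 0.45, or -0.12 without NC library 3.

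SLC7A8 (LAT2) was at 1.23, 0.954 and 0.414 in NC and at 1.79, 1.11 and 1.62 in the siRNA-labelled libraries, from 31 to 137 counts per library. The groups overlapped, and the log2 fold change of 0.81 ± 0.38 had an adjusted p of 0.226 (without NC library 3, 0.47, adjusted p = 0.0783). SLC7A7 (y+LAT1) had 21 to 47 counts per library and a log2 fold change of 0.20 ± 0.34, which became -0.08 without NC library 3. The 4 tested light chains summed to 41.7, 39.4 and 22.4 in NC and to 58.9, 55.7 and 56.3 in the siRNA-labelled libraries. Of the other light chains, SLC7A9 had 5 counts in all and SLC7A10 and SLC7A13 had 0.

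Since the heavy chain moved in the same direction, the level of each light chain was divided by that of SLC3A2 within each library. This ratio was chosen after the levels had been seen. For SLC7A5 it was 0.331, 0.304 and 0.349 in NC and 0.373, 0.411 and 0.415 in the siRNA-labelled libraries, so that NC library 3 was no longer below its group. For SLC7A6 it was 0.0306, 0.0285 and 0.0321 in NC and 0.0333, 0.0396 and 0.0429 in the other group. Both sets were apart with an exact two-sided permutation p of 0.1, the smallest that 3 against 3 can give, and an adjusted p of 0.25 over the 5 ratios computed. The ratios of SLC7A7 and SLC7A8 overlapped between the groups (exact permutation p = 0.2 for each). The ratio of SLC7A11, the cystine and glutamate exchanger, overlapped too (exact permutation p = 0.6), with NC library 3 at 0.0853 and the other libraries at 0.0320 to 0.0373.

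**Figure D3:**
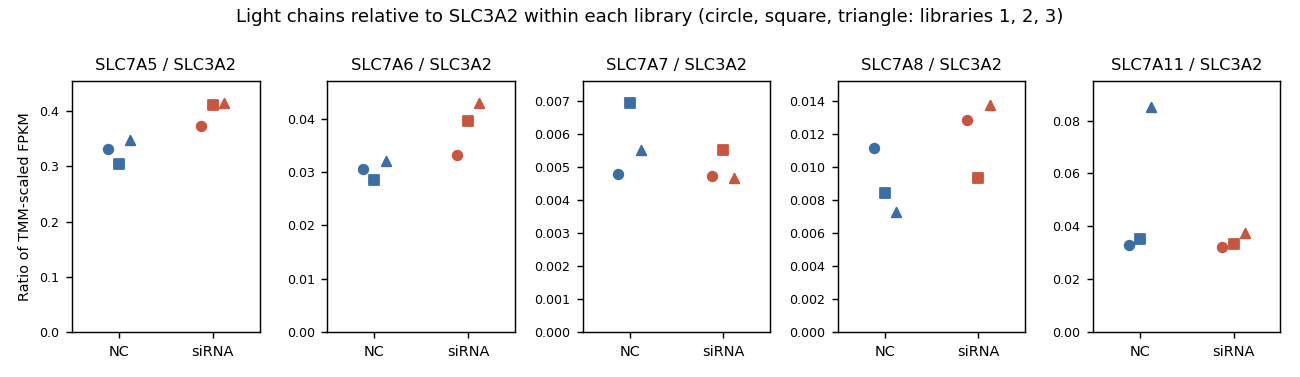
Ratio of the TMM-scaled FPKM of 5 light chains to that of the heavy chain SLC3A2 in each library, on axes that start at 0. For SLC7A5 the NC libraries lie at 0.304 to 0.349 and those labelled GRIK1 siRNA at 0.373 to 0.415, and for SLC7A11 NC library 3 lies apart at 0.0853.

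SLC7A1 (CAT-1), the main carrier of arginine and lysine, was at 17.7, 16.4 and 12.4 in NC and at 16.6, 16.7 and 16.5 in the siRNA-labelled libraries. The second group lay within the range of the first, and the log2 fold change was 0.10 ± 0.15 (adjusted p = 0.696), or -0.04 without NC library 3. SLC7A2 and SLC7A3, the other cationic carriers, had 0 counts in all libraries. SLC7A4, whose transport is less well defined, had 12, 7 and 5 counts in NC and 11, 35 and 21 in the other group, and with no filter on low values its log2 fold change was 1.26 ± 0.48 (adjusted p = 0.152). SLC7A14 had 1 count.

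Levels of the sodium-coupled SLC38 genes summed to 199.7 ± 5.76 in NC and 198.8 ± 3.18 in the siRNA-labelled libraries (SD, n = 3 each), in which SLC38A2 and SLC38A1 made up the greater share. The log2 fold change of SLC38A2 was 0.05 ± 0.13 (adjusted p = 0.818). Without NC library 3 it was -0.02, with a 95% interval from -0.12 to 0.08. SLC38A1 was at 36.3, 35.9 and 49.6 in NC and at 36.7, 37.4 and 38.4 in the other group. NC library 3 alone was high, and the log2 fold change was -0.11 ± 0.16 (adjusted p = 0.675), or 0.06 ± 0.05 without that library (adjusted p = 0.366).

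SLC38A6 (chr14:60981114-61114316, plus strand), a less studied family member, was at 16.4, 16.7 and 22.0 in NC and at 13.5, 12.6 and 13.5 in the siRNA-labelled libraries. The groups did not overlap, and NC library 3 was the highest. SLC38A6 had a log2 fold change of -0.48 ± 0.15 (adjusted p = 0.110), and without NC library 3 one of -0.32 ± 0.06 (adjusted p = 0.000364). TRMT5 overlaps it on the opposite strand with a mean of 395 counts, and its log2 fold change was -0.13 ± 0.19, or 0.07 without NC library 3.

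SLC38A7 (chr16:58665109-58684770, minus strand), a lysosomal glutamine exporter, was at 11.1, 9.69 and 5.54 in NC and at 9.38, 8.36 and 8.48 in the other group. Here NC library 3 lay below and the other NC libraries above the siRNA-labelled libraries. SLC38A7 had a log2 fold change of -0.0023 ± 0.24 (adjusted p = 0.996) with it and -0.25 ± 0.07 without it (adjusted p = 0.0155). SLC38A10 was at 9.26, 8.57 and 3.70 in NC and at 10.4, 9.56 and 9.66 in the other group, with a log2 fold change of 0.46 (adjusted p = 0.375), or 0.15 without NC library 3 (adjusted p = 0.0858).

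SLC38A9, the lysosomal arginine sensor that acts on mTORC1, was at 1.82, 2.13 and 3.25 in NC and at 2.10, 2.45 and 2.44 in the siRNA-labelled libraries. NC library 3 was the highest of all, and the log2 fold change was -0.04 ± 0.22 with it and 0.24 without it (adjusted p = 0.113). Of the other SLC38 genes, SLC38A4 and SLC38A5 had 61 counts each over the 6 libraries, SLC38A3, SLC38A8 and SLC38A11 had 2 each, and none of these 5 was tested.

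Proton-coupled carriers were low. SLC36A1 (PAT1), which exports amino acids from lysosomes, was at 2.82, 2.60 and 2.15 in NC and at 3.30, 2.97 and 3.55 in the siRNA-labelled libraries. The groups were apart, and the log2 fold change was 0.38 ± 0.15 (adjusted p = 0.180), or 0.27 without NC library 3 (adjusted p = 0.0611). SLC36A4 was at 2.446, 2.373 and 2.398 in NC and at 2.004, 2.26 and 2.07 in the other group, and its log2 fold change was -0.19 with all libraries (adjusted p = 0.352) and without NC library 3 (adjusted p = 0.165). SLC36A2 had 0 counts and SLC36A3 had 3.

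Of the SLC43 facilitators, SLC43A3 (chr11:57406954-57427580, minus strand) was at 111.6, 106 and 57.0 in NC and at 79.5, 77.1 and 76.3 in the siRNA-labelled libraries. NC library 3 was the lowest of the 6 and the other NC libraries were the highest. SLC43A3 had a log2 fold change of -0.24 ± 0.25 (adjusted p = 0.564), which without NC library 3 was -0.49 ± 0.05 (adjusted p = 4.61e-07). SLC43A1 (LAT3; chr11:57484534-57515780, minus strand), a facilitator of leucine and other large neutral amino acids, had 33, 34 and 21 counts in NC and 24, 22 and 12 in the other group. Its levels were 0.829, 0.861 and 0.477 against 0.532, 0.479 and 0.251, so that the groups overlapped only through NC library 3. For SLC43A1 the log2 fold change was -0.77 ± 0.38 (adjusted p = 0.246), and without NC library 3 it was -1.01 ± 0.33 (adjusted p = 0.0242). DESeq2 without NC library 3 gave SLC43A1 an adjusted p of 0.0801, and the gene lay near the filter. SLC43A2 (LAT4) had 15 to 23 counts in NC and 24 to 32 in the other group and was not tested.

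**Figure D4:**
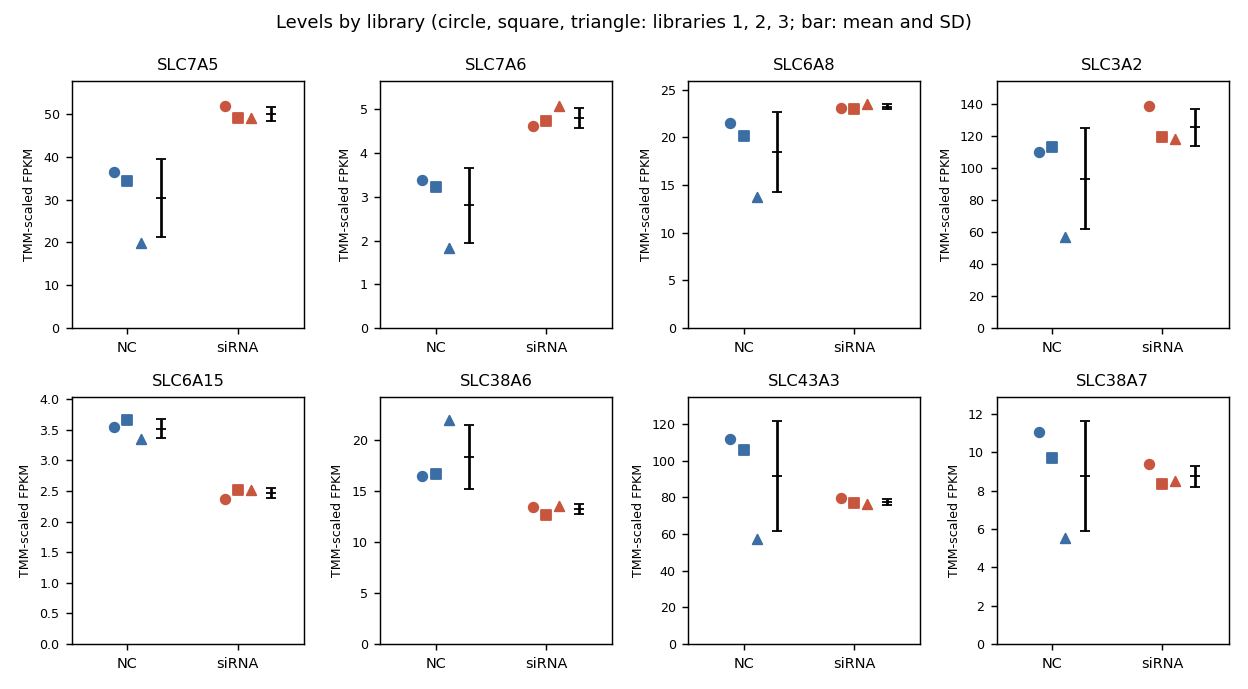
TMM-scaled FPKM of 7 carriers and the heavy chain SLC3A2 in each library, with the mean and SD (n = 3) beside each group and axes that start at 0. SLC6A15 lies at 3.36 to 3.66 in NC and 2.37 to 2.52 in the siRNA-labelled libraries. The triangle of NC library 3 lies below all 5 others for SLC7A5, SLC7A6, SLC6A8, SLC3A2, SLC43A3 and SLC38A7.

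Among the SLC6 carriers of neutral amino acids, SLC6A15 (B0AT2; chr12:84859491-84913629, minus strand), which takes up proline and branched-chain amino acids, was at 3.54, 3.66 and 3.36 in NC and at 2.37, 2.51 and 2.52 in the siRNA-labelled libraries. All 3 NC libraries, NC library 3 included, were above the other group. The log2 fold change was -0.51 ± 0.11 (adjusted p = 0.0521), and without NC library 3 it was -0.54 ± 0.06 (adjusted p = 5.05e-06). SLC6A15 thus had the lowest adjusted p of the 20 genes with all libraries, and the estimate ranged from -0.54 to -0.48 as each library was left out. Its edgeR adjusted p was 0.101 to 0.260 when a library other than NC library 3 was left out, and 0.152 with the replicate block. SLC6A17, a carrier of synaptic vesicles, was at 3.58, 2.87 and 1.52 in NC and at 2.66, 2.87 and 3.04 in the other group, with a log2 fold change of 0.11 ± 0.29, or -0.17 without NC library 3. SLC6A16 had 62 counts over the 6 libraries, and SLC6A14, SLC6A18, SLC6A19 and SLC6A20, known from epithelia, had 0.

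Of the SLC6 carriers of taurine, creatine and glycine, SLC6A8 (chrX:153687926-153696588, plus strand), the creatine carrier, was at 21.6, 20.2 and 13.8 in NC and at 23.1, 23.0 and 23.5 in the siRNA-labelled libraries. The groups did not overlap. SLC6A8 had a log2 fold change of 0.33 ± 0.18 (adjusted p = 0.283), which without NC library 3 was 0.15 ± 0.05 (adjusted p = 0.0288), which DESeq2 put at an adjusted p of 0.0795. SLC6A6 was at 76.6, 70.1 and 30.9 in NC and at 77.6, 76.6 and 74.0 in the other group. Apart from NC library 3 these values lay close together, and the log2 fold change was 0.36 ± 0.31 (adjusted p = 0.484) with it and 0.05 ± 0.05 without it (adjusted p = 0.456). SLC6A9 (GlyT1), a glycine carrier, was at 4.39, 3.35 and 2.21 in NC and at 3.29, 3.41 and 3.33 in the other group, with log2 fold changes of 0.01 and -0.21. CCDC24, on the opposite strand across SLC6A9, had 118 to 198 counts per library. Its log2 fold change was -0.02 ± 0.24, or -0.26 without NC library 3, and like SLC6A9 it was lowest in NC library 3. As the strand setting is not given, reads of SLC6A9 and CCDC24 cannot be told apart where they overlap.

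Carriers of GABA and monoamines were barely detected. The dopamine carrier SLC6A3 was without a count (0) throughout NC and had 5, 3 and 3 counts in the siRNA-labelled libraries. With no filter on low values its edgeR adjusted p was 0.110. The serotonin carrier SLC6A4 had 22, 11 and 9 counts in NC and 18, 21 and 22 in the other group. The proline carrier SLC6A7 had 33 counts over the 6 libraries and shares its locus with CAMK2A on the opposite strand. The GABA and betaine carrier SLC6A12 had 9 counts and SLC6A13 had 5. SLC6A2, SLC6A5 and SLC6A11, carriers of noradrenaline, glycine and GABA, had 0. In all, 12 of the 49 genes had 0 counts in every library, which allows up to 3 counts in each, and 17 had 1 to 137 counts over the 6 libraries without reaching the filter.

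Genes were also counted by whether the groups overlapped. In all 6 libraries 8 of the 20 were apart, with SLC7A5, SLC7A6, SLC6A8, SLC38A10 and SLC36A1 higher and SLC6A15, SLC38A6 and SLC36A4 lower, beside 38.4% of all tested genes (19.4% higher and 19.0% lower). Without NC library 3, 12 of 20 were apart, beside 56.5% of all tested genes. Both shares lie near the background.

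Genes around these carriers were read from lists by function, with medians of -0.02 and 0.01 (without NC library 3) for all tested genes as the base. Of 10 other amino acid carriers outside mitochondria 5 were tested, and 1 passed with all libraries by edgeR (beside 3.08% of all genes), 1 by DESeq2 (10.6%) and 3 by limma voom with quality weights (39.9%). The glial glutamate carrier SLC1A3 was lower, from 3.40, 3.45 and 2.94 in NC to 1.93, 2.07 and 2.09 in the siRNA-labelled libraries, with a log2 fold change of -0.68 ± 0.12 (adjusted p = 0.0378). Without NC library 3, 3 of the 5 passed, beside 35.2% of all genes. SLC1A3 was at -0.75, and the glutamate carrier SLC1A1 (0.66, adjusted p = 0.00240) and the neutral amino acid carrier SLC1A4 (0.34, adjusted p = 0.00269) were higher. With all libraries SLC1A1 was at 0.53 and SLC1A4 at 0.50, and neither passed by edgeR. Glutamine carrier SLC1A5 was at 36.3 ± 8.97 in NC and 45.5 ± 2.83 in the other group (SD, n = 3 each), with an adjusted p of 0.322, or 0.0745 without NC library 3. SLC7A11 had a log2 fold change of 0.04 ± 0.14 (adjusted p = 0.860), or 0.17 without NC library 3 (adjusted p = 0.123). Of 9 mitochondrial carriers 8 were tested and 0 passed with all libraries by edgeR (2 at an unadjusted p under 0.05, and by DESeq2 0, by limma voom with quality weights 3), while 4 of 8 passed without NC library 3. The shares of all genes were 3.08%, 10.6%, 39.9% and 35.2% in these fits. The 4 genes were SLC25A18 (0.45), a glutamate carrier, and, on the lower side, SLC25A12 (-0.37), SLC25A29 (-0.23) and SLC25A38 (-0.31). With all libraries their log2 fold changes were 0.37, -0.57, -0.03 and -0.45 in the same order.

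In the list of 24 genes of the amino acid response, the programme of ATF4, 2 passed with all libraries, both higher, beside 3.08% of all genes. DESeq2 called 7 on the same libraries, beside 10.6%, and limma voom with quality weights 15, beside 39.9%. ALDH18A1, which makes the precursor of proline, had a log2 fold change of 0.93 ± 0.17 (adjusted p = 0.0387), or 0.77 without NC library 3 (adjusted p = 1.61e-08). The alanine aminotransferase GPT2 had 0.71 ± 0.12 (adjusted p = 0.0378), or 0.63 without NC library 3 (adjusted p = 1.215e-06). Without NC library 3 there were 9 higher and 6 lower (62.5% of the list), beside 16.9% and 18.3% of all genes (35.2% in all). In that fit the transcription factors of the list lay on both sides, such as ATF4 (0.28) and DDIT3 (0.54) on the higher and ATF5 (-0.66) on the lower. With all libraries none of these 3 passed by edgeR. ATF4 was at 0.07 (adjusted p = 0.82) and was highest in NC library 3. DDIT3 was at 0.36 (adjusted p = 0.213) and ATF5 at -0.57 (adjusted p = 0.0622). ASNS, the asparagine synthetase and a target of the programme, was picked after its values were seen and does not stand for the list. It was at 3.37, 3.85 and 2.42 in NC and at 3.56, 3.17 and 4.003 in the other group. These values overlapped with and without NC library 3 (edgeR adjusted p = 0.639 and 0.963). The median log2 fold change of the list was 0.07, and 0.12 without NC library 3.

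Of the 31 tested genes of amino acid sensing by mTORC1, 1 was higher and 2 lower with all libraries, beside 3.08% of all genes. DESeq2 called 9, beside 10.6%, and limma voom with quality weights 16, beside 39.9%. The kinase MTOR rose from 5.25, 5.07 and 3.03 in NC to 9.54, 9.07 and 8.49 in the siRNA-labelled libraries (log2 fold change 1.02 ± 0.21, adjusted p = 0.0498), and without NC library 3 its log2 fold change was 0.81 (adjusted p = 3.84e-08). MLST8, a subunit of the complex, had a log2 fold change of -1.01 ± 0.17 (adjusted p = 0.0353), or -0.89 without NC library 3 (adjusted p = 3.545e-05). The Rag GTPase RRAGD had -1.11 ± 0.19 (adjusted p = 0.0378), or -0.88 without NC library 3 (adjusted p = 3.73e-06). The members that passed thus lay on both sides, and the median of the list was -0.12, or -0.03 without NC library 3, where 8 were higher and 8 lower (51.6%, beside 35.2% of all genes). With any other single library left out, 0 genes of the whole table passed, so none of these calls with all 6 libraries was retained in those fits.

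**Figure D5:**
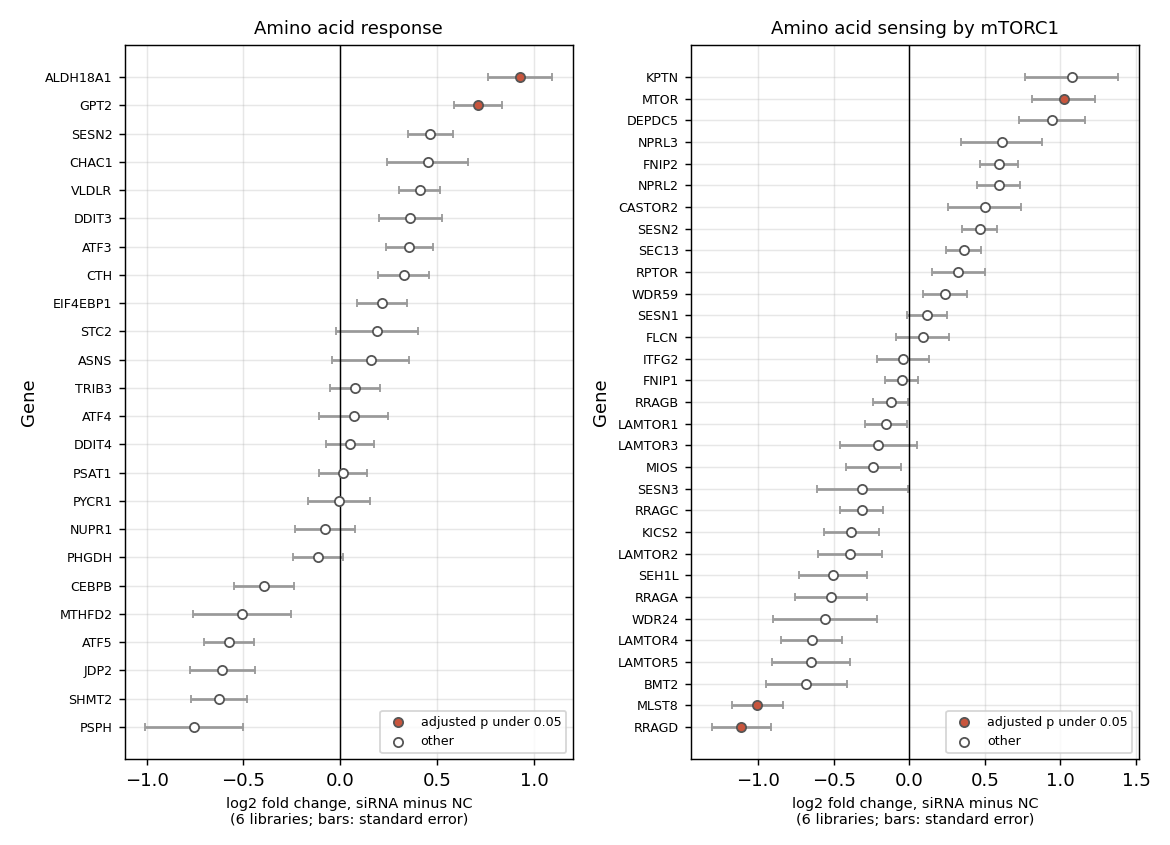
Log2 fold change (siRNA-labelled libraries minus NC, all 6 libraries, edgeR) of the tested genes of the amino acid response and of amino acid sensing by mTORC1, with bars of 1 standard error. Filled marks passed at an adjusted p under 0.05, namely ALDH18A1, GPT2 and MTOR on the higher side and MLST8 and RRAGD on the lower.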

How the data were processed

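RNA was sequenced from U87-MG cells in 3 NC libraries and 3 libraries labelled GRIK1 siRNA, grouped by their titles. The authors deposited whole-number read counts per gene, without normalization, and FPKM values computed from those counts. The formula gave 100% of 370836 deposited FPKM values within 0.0051. The submitters' processing notes name cutadapt 1.9.1, HISAT2, HTSeq and GRCh38. Strand setting and annotation release are not given in the sources used here. No columns of values were left unassigned (0), and 0 entries name no gene. The deposited annotation columns were not tested.

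Genes with a mean FPKM of at least 0.5 (15870) were tested on counts with the quasi-likelihood test of edgeR 4.0.16 (R 4.3.3), with TMM scaling, no block and Benjamini-Hochberg adjustment. A gene passed at an adjusted p under 0.05, with an added absolute log2 fold change over 1 as an alternative. Standard errors were the absolute log2 fold change divided by the square root of F. The levels given are deposited counts scaled to the TMM-adjusted library total and to kilobases of exon. Other alternatives were median-of-ratios scaling, no filter, a filter at 1 FPKM, a replicate block, DESeq2 1.42.0, limma 3.58.1 (voom with sample quality weights) and leaving out each library. Median-of-ratios scaling and DESeq2 without NC library 3 were added after seeing the data. GRIK1 and the ratios to SLC3A2 were tested with exact permutation tests (scipy 1.17.1, numpy 2.4.6, pandas 2.3.3, Python 3.11.15). Scripts were tested on simulated data.

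The genes of the set are given by role. Full statistics are given for genes that passed with all libraries or without any 1 library and for the 5 highest, and at most 5 passing genes are named per list. Genes named without passing (ASNS, SLC1A5, SLC7A11) were chosen after their values were seen. Some genes of the set and the lists are not reported here. The genes and lists were chosen with earlier results of these data known. A count of 0 allows up to 3 counts, and this floor covers counting error only. Depth was 11099909 to 14006968 counts per library.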

Additional observations from a re-analysis of the deposited data

How the results depend on the processing

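Over the 20 tested genes, 278 fold changes were computed under alternatives. Of these 203 kept direction and side of the threshold, 36 passed where the reported value had not and 39 reversed. None of the reported values was a call, so no call could be lost. The 8 genes that reversed at least once had reported log2 fold changes of at most 0.20 in size, and the other 12 kept their direction in every alternative. With all 6 libraries, carriers passing numbered 2 higher with no filter on low values, 2 higher and 1 lower by DESeq2, and 4 higher and 5 lower with sample quality weights, where NC library 3 had a weight of 0.0498. Leaving out each library gave 0 to 3 higher and 0 to 5 lower, and the non-zero values came from leaving out NC library 3. Without that library, median-of-ratios scaling gave 3 higher and 5 lower, and DESeq2 gave 2 and 4. Of all genes, 489 passed as reported, 224 with an absolute log2 fold change over 1, 1403 with no filter, 1684 by DESeq2, 6327 with quality weights, 0 to 5591 with each library left out, and 5594 and 4210 without NC library 3 by median-of-ratios scaling and DESeq2.

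Values that reversed were mostly those without NC library 3. In the order of that fit, median-of-ratios scaling and DESeq2 without it, and quality weights with all libraries, SLC38A1 was at 0.0574, 0.0594, 0.0594 and 0.0602, SLC38A2 at -0.0198, -0.0178, -0.0178 and -0.0091, SLC38A9 at 0.24, 0.25, 0.25 and 0.23, SLC6A17 at -0.17, -0.17, -0.17 and -0.0775, SLC6A9 at -0.21, -0.21, -0.21 and -0.13, SLC7A1 at -0.0352, -0.0333, -0.0333 and -0.0138, and SLC7A7 at -0.0768, -0.0749, -0.0746 and -0.16. SLC6A9 was at -0.0082 with no filter. SLC38A7, reported at -0.0023, was at 0.0017 with median-of-ratios scaling, 0.0167 with a filter at 1 FPKM and 0.0015 by DESeq2. Over single libraries left out, SLC38A7 ranged from -0.25 to 0.20, SLC38A9 from -0.20 to 0.24, SLC38A1 from -0.19 to 0.06, SLC38A2 from -0.02 to 0.10, SLC6A9 from -0.21 to 0.27, SLC6A17 from -0.17 to 0.39, SLC7A1 from -0.04 to 0.21 and SLC7A7 from -0.08 to 0.57. The cause was not tested.

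The correlations of same-numbered deviations from the group means were -0.0703, 0.0441 and -0.0425. With NC library 3 far from its group, the NC deviations largely reflect that library. These values therefore cannot show whether the replicate numbers pair the libraries. With the replicate block 0 carriers and 0 of all genes passed, SLC38A7 was at 0.0513, and no other carrier changed direction. GRIK1 kept its difference of 0.12 within pairs of the same number (exact permutation p = 0.5), and it was 0.45 with a pseudocount of 0.1 and 0.06 to 0.20 with each library left out. SLC7A7 and SLC43A1 fall below a filter at 1 FPKM and have no value there. Depth limits the 17 untested genes with 137 counts or fewer over the 6 libraries.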
